A study of Mus musculus with 2 samples.

Results

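The ephrin, Slit-Robo and netrin systems of axon guidance were described in hippocampus of mice at 10 days of age. The genes were chosen by symbol: all Eph receptors, ephrins, Slits, Robos, netrins of the Ntn1, Ntn3, Ntn4 and Ntn5 type, Dcc and the Unc5 receptors. This gave 38 of the 55536 annotated genes, with 23 receptors (9 EphA, 5 EphB, 4 Robo, and Dcc with 4 Unc5 genes) and 15 ligands (5 ephrin-A, 3 ephrin-B, 3 Slit, 4 netrin). The symbol rule uses no measured value, but the genes were chosen with earlier results of these data known. The mice were B6CASTF1/J, a cross of C57BL/6J with CAST/EiJ in its first generation, and the labels name no genotype or treatment; total RNA was sequenced. The labels give the tissue as a layer of hippocampus, the sex as male, 3 males per entry and 300 ng of starting RNA, and they describe 1 group with 2 biological replicates. They do not spell out whether the 3 animals were pooled. Since no conditions can be compared within 1 group, the levels, their spread over the 2 libraries and the composition in transcripts are given.

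Eph receptors are the largest family of receptor tyrosine kinases. EphA receptors mainly bind ephrin-A ligands, which are held to the membrane by a lipid anchor, and EphB receptors mainly bind ephrin-B ligands, which span it; binding between touching cells signals into both and often repels a growing axon. Slits are secreted proteins that repel axons through Robo receptors. Netrins are secreted cues that attract axons through Dcc and repel them where Unc5 receptors take part. In the hippocampus these systems are known for the layering of entorhinal and mossy fibre inputs and for the shaping of dendritic spines.

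The depth was 32035705 expected counts for replicate 1 and 29747193 for replicate 2. Sex-linked genes went against the label of replicate 2, where Xist had 30841 counts against 25 in replicate 1 and Ddx3y, Eif2s3y, Kdm5d and Uty had 0 to 2 counts against 764 to 2164. It is therefore called the library labelled male, replicate 2, and every direction between the libraries given here is also one between libraries that differ in these genes. Fixed markers of hippocampal neurons were present in both libraries: 4 of 4 excitatory neuron markers summed to 2067 and 2242 TPM (a level corrected for transcript length, with an equal library total) and 3 of 3 dentate granule markers to 60.03 and 64.1 TPM. Some marker sums differed between the libraries: 5 myelin markers summed to 156 and 281 TPM, 4 choroid plexus markers to 10.6 and 349, and 3 red blood cell markers to 377 and 213. Most of the choroid plexus sum was Ttr, at 8.02 and 340 TPM. Folr1 had 0.59 and 4.97, Aqp1 0.22 and 1.98, and Kl 1.76 and 2.08. No marker of these cell types was at 0 in either library. In tissue, fewer cells of a type and less RNA per cell cannot be told apart.

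At a TPM of at least 1 in both libraries, 35 of the 38 genes were detected. Epha1 was at 0.030 and 0.050 TPM with 2 and 3 counts, Ntn5 at 0.47 and 0.20 with 16 and 6 counts, and Epha2 at 1.23 and 0.68 with 82 and 52 counts. These 3 genes were the lowest of the set by these values and are not interpreted further. Detection of Epha2 depended on the table, since the transcript table made from the FASTQ files gave it 4.26 and 3.10 TPM. Together the 38 genes held 1008 TPM in replicate 1 and 1025 in replicate 2, or 0.218% and 0.222% of the TPM on nuclear protein-coding genes.

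**Figure D1:**
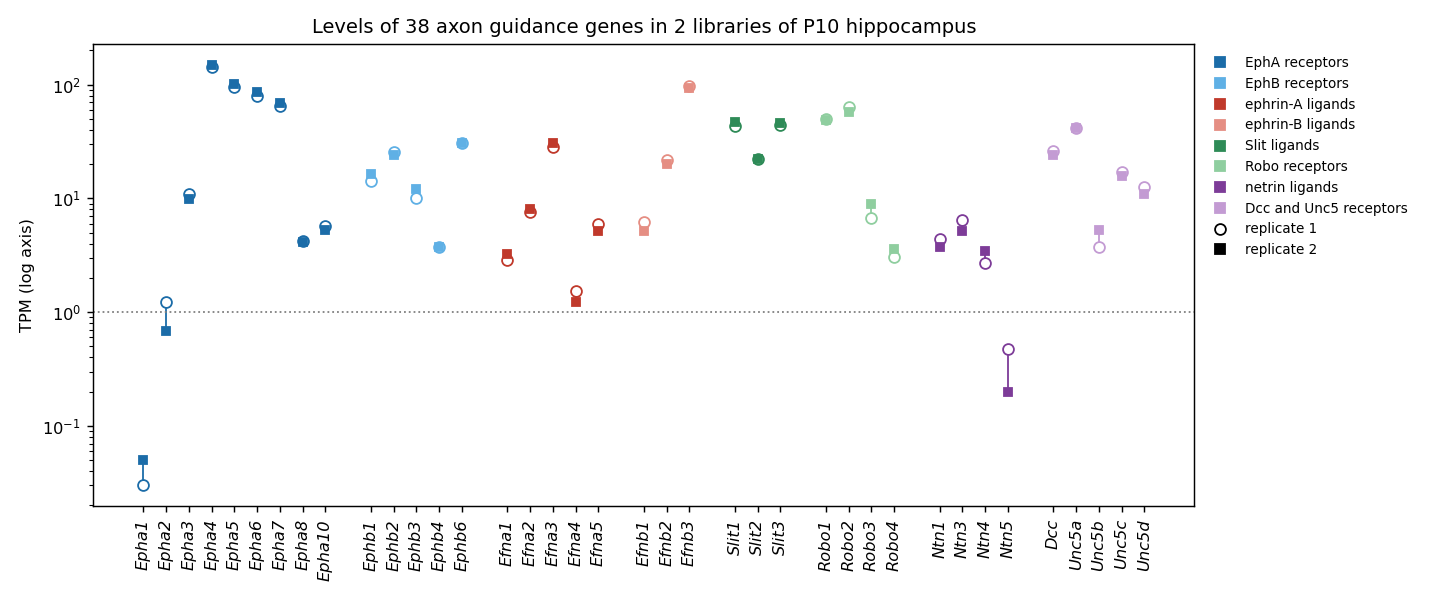
Level of each of the 38 genes in TPM on a log axis, coloured by class, with a circle for replicate 1 and a square for the library labelled male, replicate 2; the dotted line marks 1 TPM. Epha4 stands highest at 142 and 149 TPM, and Epha1, Epha2 and Ntn5 fall below the line in at least 1 library.

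Among the EphA receptors, 4 genes carried most of the signal. Epha4, a receptor for both ephrin classes that is known for its role at dendritic spines, stood at 142 TPM in replicate 1 and 149 in replicate 2. Epha5 stood at 95.01 and 102 TPM, Epha6 at 79.9 and 85.5, and Epha7 at 65.1 and 69.4. All 4 have ephrin-A ligands, their library ranges did not overlap, and Epha4 ranked 530th among the 13062 detected nuclear protein-coding genes. The other 3 detected EphA genes were well below them. Epha3 had 10.9 and 9.85 TPM, Epha10 had 5.74 and 5.28, and Epha8 had 4.25 and 4.13. The gap between the lowest of the leading 4, Epha7 at 67.3 ± 3.01 TPM (SD, n = 2), and Epha3 at 10.4 ± 0.742 was far beyond the spread of either. Epha4 alone made up 35.1% and 34.9% of the summed EphA TPM.

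The EphB receptors were lower and more even. Ephb6, a family member known to lack kinase activity, led in gene TPM with 30.6 and 30.8. By alignment 10.1 and 10.6 TPM of Ephb6 lay in Ephb6-203, an incomplete transcript of 459 bases. The longer Ephb6-201 had 20.45 and 19.54 TPM. In counts Ephb6 was below Ephb2, with 1703 and 1527 against 2976 and 2619. Ephb2, a receptor that clusters NMDA-type glutamate receptors at synapses, had 25.6 and 24.3 TPM. Ephb1 had 14.2 and 16.4, Ephb3 had 10.0 and 11.97, and Ephb4, best known from veins, had 3.71 and 3.70. No neighbours in this order overlapped over the 2 libraries, and Ephb6 made up 36.4% and 35.4% of the EphB sum.

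A receptor tyrosine kinase signals through a catalytic loop, in which an aspartate is needed for phosphate transfer. The coding bases of this loop are shown because they separate receptors that can signal as kinases from those known not to, and because they give a mark for whole and truncated transcripts. They were read from GENCODE M21 transcripts, built on GRCm38, over 27 coding bases, 5′ to 3′. Capitals mark the codon at the place of the catalytic aspartate, found by the closest match to the loop of Epha4. Epha4 lies at chr1:77382962-77382988 on the minus strand, Epha7 at chr4:28950449-28950475 on the plus strand, Epha10 at chr4:124914015-124914041 on the plus strand and Ephb6 at chr6:41618661-41618687 on the plus strand.
Epha4: gtgcatcgaGACctggctgccaggaac
Epha7: gttcacaggGACcttgcagcgcgcaac
Epha10: gttcaccggGGCcttgcagcccgccga
Ephb6: gttcaccgaGCActctcggcccgaagt

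An aspartate codon, GAC or GAT, stood at that place in 12 of the 14 Eph receptor genes, and GGC in Epha10 and GCA in Ephb6 are not aspartate codons. Over the 28 codons around the loop, Ephb6 shared 18 encoded residues with Epha4 and Epha10 shared 20, as many as Epha8, which has the aspartate codon, so that identity over this window did not set Epha10 apart. EphA10 and EphB6 are known as receptors without kinase activity. Their levels differed: Ephb6 was at 30.7 ± 0.163 TPM (SD, n = 2), and Epha10 was at 5.51 ± 0.325. Ephb6 was the highest EphB gene by gene TPM, part of which lay in the short Ephb6-203.

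The transcript tables allow a count of how much Eph receptor RNA carries this loop. A transcript was counted as holding it where its coding sequence matched the 28 codons of its gene at 90% or more, so the loops of Epha10 and Ephb6, without the aspartate codon, are counted too. In the transcript table made from alignments, transcripts with the loop held 68.9% and 69.9% of the Eph receptor TPM. In the transcript table made from the FASTQ files they held 64.8% and 64.3%. Loops with the aspartate codon alone made up 64.0% and 65.5% by alignment and 60.2% and 60.05% from FASTQ files. The order of the classes depended on this choice. EphB receptors had 82.9% and 80.3% by alignment against 66.0% and 67.8% for EphA receptors, but with the aspartate codon 58.6% and 57.9% against 65.1% and 67.0%. From FASTQ files the classes were closer with any loop, at 67.1% and 68.5% for EphB and 64.3% and 63.3% for EphA. With the aspartate codon they were further apart than by alignment, at 47.4% and 49.1% for EphB and 63.4% and 62.5% for EphA. The rest was of 2 kinds: transcripts with no coding sequence held 15.9% and 15.7% of the Eph receptor TPM by alignment, and coding transcripts without the loop held the remainder. Some of the latter are annotated with incomplete ends, and among protein-coding transcripts with a complete coding sequence the loop share was 90.1% and 89.6%.

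The receptors differed in this share. Epha8 has a single annotated transcript and Ephb4 5 that all hold the loop, so both were at 100% by construction. Epha4 had 78.2% and 82.3% by alignment, and 73.3% and 69.7% from FASTQ files. Epha5 had 68.9% and 69.2%, and Epha6 65.8% and 66.6%, by alignment. For Epha5 and Epha6 the remainder lay in transcripts with no coding sequence, 31.1% and 30.8% of Epha5 TPM and 34.2% and 33.4% of Epha6 TPM. Most of it was in transcripts annotated as retained introns, Epha5-207 at 20.2 and 21.01 TPM and Epha6-202 at 18.2 and 19.7. Since total RNA was sequenced, RNA not yet spliced may be assigned to such transcripts, and its part was not tested. Ephb6 had 66.9% and 63.4% by alignment, where the remainder lay mainly in Ephb6-203, an incomplete transcript of 459 bases with 10.1 and 10.6 TPM. Epha7 was the lowest detected receptor by both tables, with 29.9% and 30.7% by alignment and 29.6% and 31.7% from FASTQ files.

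**Figure D2:**
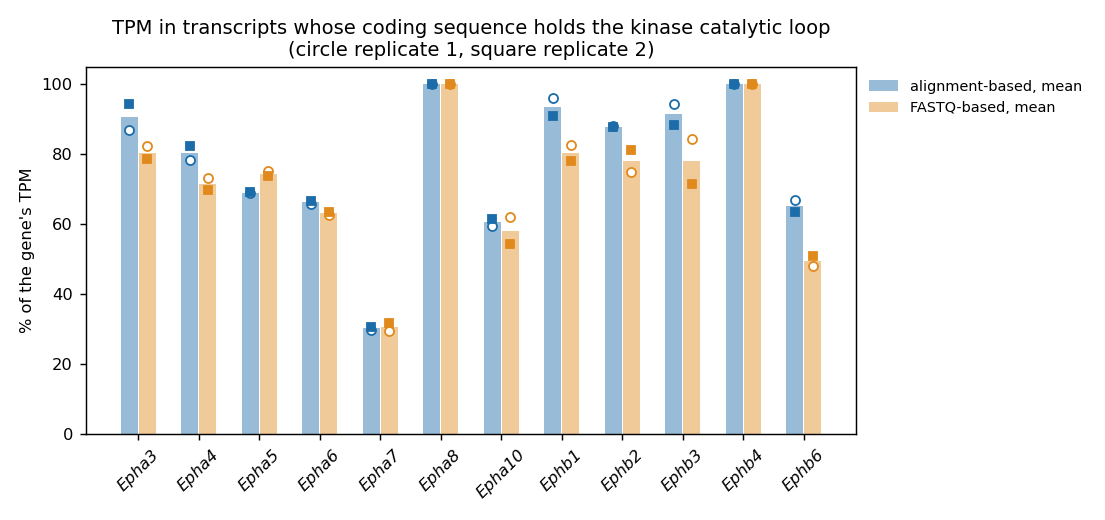
Share of each detected Eph receptor's TPM (vertical axis, %) in transcripts whose coding sequence holds the kinase catalytic loop, with bars for the mean of 2 libraries, circles for replicate 1 and squares for the library labelled male, replicate 2, in blue for the alignment-based and orange for the FASTQ-based table. Epha7 sits near 30% in both tables, while the other receptors range from 48.2% to 100% over single libraries.

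The Epha7 RNA without the loop was mostly not fragmentary. Epha7-202 and Epha7-204 have complete coding sequences of 610 and 626 codons, against 998 codons in Epha7-201, and truncated EphA7 receptors without a kinase domain are known from brain. The coding ends are shown because they are the part by which these transcripts are told apart from the full-length one. Lower-case letters are the last 30 bases in common, at chr4:28943349-28943378 on the plus strand of GRCm38. Capitals are the bases that follow in each transcript, at chr4:28947528-28947563 in Epha7-201, at chr4:28946219-28946253 in Epha7-202 and at chr4:28966523-28966605 in Epha7-204; in Epha7-202 and Epha7-204 they run to the stop codon.
Epha7-201: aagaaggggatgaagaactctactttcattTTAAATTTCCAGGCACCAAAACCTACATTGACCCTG
Epha7-202: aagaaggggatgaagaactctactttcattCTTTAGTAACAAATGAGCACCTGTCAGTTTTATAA
Epha7-204: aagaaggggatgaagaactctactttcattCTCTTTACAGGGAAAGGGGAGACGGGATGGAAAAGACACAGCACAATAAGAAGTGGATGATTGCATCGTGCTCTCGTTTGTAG

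The 3 transcripts part at codon 600 by different splice junctions, over introns of 4149 bases in Epha7-201, 2840 in Epha7-202 and 23144 in Epha7-204. Epha7-202 was the leading Epha7 transcript in both tables. By alignment it had 21.1 TPM in replicate 1 and 22.2 in replicate 2, with deposited interval bounds of 18.3 to 22.5 and 19.2 to 23.7. Epha7-201 had 16.8 and 17.3 TPM, with bounds of 14.3 to 17.9 and 14.9 to 18.3. The bounds of these 2 transcripts did not overlap in either library. Such bounds need not hold the estimate, as Epha4-201 had 92.1 TPM in replicate 1 with bounds of 47.8 to 71.6. From FASTQ files the lead was smaller, with 27.2 and 29.5 TPM for Epha7-202 against 25.3 and 26.8 for Epha7-201. By alignment Epha7-204 had 12.6 and 16.7 TPM, and Epha7-203, a near full-length form of 994 codons, 2.67 and 3.99. Epha7-202 and Epha7-204 together reached 33.7 and 38.9 TPM, against 19.5 and 21.3 TPM for the transcripts with the loop, a ratio of 1.73 and 1.83. From FASTQ files the ratio was lower, at 1.49 and 1.52, and stayed above 1 in both libraries. The remainder of Epha7 TPM, 18.5% and 13.3% by alignment, lay in transcripts with no coding sequence.

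Protein-coding transcripts with a complete coding sequence but without the loop were also listed for 3 other detected receptors, at lower levels. Epha10-201, of 292 codons, had 1.10 and 1.03 TPM, or 19.2% and 19.5% of Epha10. Epha3-206, of 538 codons, had 1.00 and 0.27 TPM, and Ephb1-203, of 456 codons, had 0.56 and 0.82. In these 3 the own coding bases follow the shared ones in the genome with a gap of 0 bases. They thus read on from an exon of the full-length transcript past its splice site, unlike Epha7-202 and Epha7-204. Total RNA was sequenced, and how far RNA not yet spliced adds to the levels of these 3 was not tested. Epha4-207, annotated for nonsense-mediated decay with a coding sequence of 38 codons, had 10.2 and 5.06 TPM by alignment and 23.3 and 32.3 from FASTQ files.

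Of the ephrin-A ligands, Efna3 was the main one. It stood at 28.3 TPM in replicate 1 and 30.5 in replicate 2, or 61.3% and 63.2% of the ephrin-A sum. Efna2 had 7.54 and 8.09 TPM, Efna5 had 5.95 and 5.20, and Efna1 had 2.85 and 3.24. Efna4 was lowest of the 5 at 1.54 and 1.22 TPM, from 50 and 37 counts. Efna1, Efna3 and Efna4 lie side by side on chromosome 3, and Efna3 and Efna4 are 10425 bases apart with levels that differ 21.3-fold. Efna4 overlaps an antisense gene over 179 bases, and since nothing in the sources says whether counting used strand, its low count is uncertain.

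Ephrin-B ligands were higher, through Efnb3. Efnb3 stood at 97.4 and 93.9 TPM, a level that overlapped that of Epha5. Efnb2, also known as a marker of arteries, had 21.9 and 20.1 TPM, and Efnb1, on chromosome X, had 6.17 and 5.20. Efnb3 made up 77.6% and 78.7% of the class. All Efnb3 reads are assigned to a single annotated transcript, Efnb3-201, whereas Efnb2-201 held 79.0% and 81.5% of Efnb2.

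For the Slits, Slit3 and Slit1 were alike in level in the gene table and Slit2 was lower. Slit3 had 44.2 and 46.3 TPM, Slit1 had 43.2 and 46.7, and Slit2 had 22.0 and 22.4. The ranges of Slit3 and Slit1 overlapped, and both were above Slit2 in each library. From FASTQ files these ranges did not overlap, with 72.6 and 72.6 TPM for Slit3 against 59.6 and 62.2 for Slit1. Slit1 was split between transcripts of 1531 and 1458 codons: Slit1-201 had 22.8 and 24.5 TPM and Slit1-203 had 19.3 and 20.0 by alignment. The lead of Slit1-201 was small, at 1.18- and 1.22-fold by alignment and 1.007- and 1.14-fold from FASTQ files. Slit3-201 held 77.7% and 76.8% of Slit3. Slit2 has 23 annotated transcripts, and its leading one, Slit2-216, held 39.3% in replicate 1 and 27.6% in replicate 2.

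Robo2 and Robo1, the main neuronal Slit receptors, were close to the Slits in level. Robo2 had 63.5 and 57.6 TPM and Robo1 had 50.2 and 48.6. From FASTQ files the order was reversed, with 79.0 and 77.1 for Robo2 and 99.1 and 95.3 for Robo1. By alignment Robo2-207, of 430 bases and no coding sequence, had 11.9 and 7.27 TPM, and from FASTQ files it was at 0. Robo1 and Robo2 lie 845744 bases apart on chromosome 16 in opposite orientation. Robo3, which is known for the crossing of the midline by commissural axons, had 6.69 and 8.86 TPM. Transcripts annotated as not protein-coding held 58.7% and 52.5% of Robo3 TPM by alignment. Of the coding forms, Robo3-202, of 1402 codons, had 2.76 and 3.25 TPM, and Robo3-201, of 1380 codons, was listed at 0 and 0.97. Robo4, a receptor of blood vessels, had 3.08 and 3.59 TPM beside endothelial markers that summed to 72.6 and 75.0. Robo3 and Robo4 run towards each other on chromosome 9 with 554 bases between their ends.

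Netrins were the lowest class. Ntn3 had 6.47 TPM in replicate 1 and 5.12 in replicate 2, Ntn1 had 4.38 and 3.77, and Ntn4 had 2.70 and 3.42. Ntn1, the best known attractant for commissural axons, had 494 and 395 counts. The value of Ntn3 is uncertain, because it shares 1715 bases on the same strand with Tbc1d24, which had 4375 and 3951 counts against 576 and 449 for Ntn3.

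The netrin receptors were higher as a class, although Unc5b lay in the range of the netrins. Unc5a led with 41.6 and 41.9 TPM. Dcc, the receptor through which netrin attracts axons, had 25.9 and 23.8, a range that overlapped that of Ephb2. Unc5c had 16.9 and 15.9, Unc5d had 12.7 and 10.9, and Unc5b, also a receptor of blood vessels, had 3.75 and 5.28. The 4 Unc5 genes thus spanned a wide range, with Unc5a at 41.8 ± 0.233 TPM and Unc5b at 4.52 ± 1.08 (SD, n = 2). The transcript tables split Dcc between forms of 1447 and 1427 codons. Dcc-202, the longer one, had 16.7 and 15.2 TPM and Dcc-201 had 7.77 and 6.96 by alignment, a ratio of 2.15 and 2.18. From FASTQ files that ratio was 1.73 and 1.72. For Unc5a the shorter form led: Unc5a-202, of 842 codons, had 36.2 and 37.7 TPM against 3.44 and 2.79 for Unc5a-201, of 898 codons.

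Summed by class, ligand and receptor levels were unequal in the ephrin-A and netrin systems and closer in the other pair. EphA receptors summed to 404 TPM in replicate 1 and 426 in replicate 2, and ephrin-A ligands to 46.2 and 48.2. EphA receptors were thus 8.76- and 8.83-fold above their ligand class, a log2 ratio of ligand over receptor of -3.14 ± 0.0079 (SD, n = 2). EphB receptors summed to 84.0 and 87.1 TPM and ephrin-B ligands to 125 and 119, a log2 ratio of 0.52 ± 0.089 in favour of the ligands. Slits summed to 109 and 115 TPM and Robos to 124 and 119. Their log2 ratio of -0.11 ± 0.096 was about as large as its spread, so no difference between these classes was resolved. Netrins summed to 14.02 and 12.5 TPM against 101 and 97.7 for Dcc with the Unc5 receptors, a log2 ratio of -2.91 ± 0.085. Ntn3, whose value is uncertain as given above, made up 46.1% and 40.9% of the netrin sum. On the FASTQ-based scale the ephrin-B ratio was 0.34 and the netrin ratio -2.64. Sums of RNA levels carry no information on protein or on which cells hold them, and Epha4 is counted with EphA although it also binds ephrin-B.

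**Figure D3:**
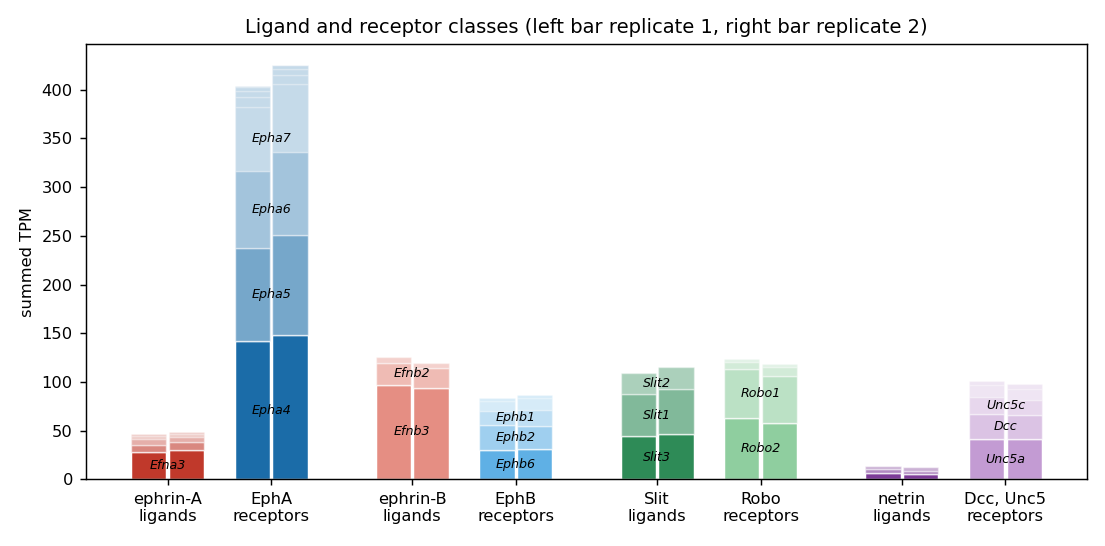
Summed TPM of each ligand class beside its receptor class, with the left bar for replicate 1 and the right bar for the library labelled male, replicate 2, and segments for single genes in order of level. EphA receptors reach 404 and 426 TPM against 46.2 and 48.2 for ephrin-A ligands, and Slits and Robos lie between 109 and 124.

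In the order of all 38 levels, 16 of 37 neighbouring pairs overlapped over the 2 libraries. Epha4 stood apart at the top, followed by Epha5 and Efnb3, whose ranges overlapped, and then by Epha6, Epha7, Robo2 and Robo1, each apart from the next. Most overlaps lay lower down, where Efna2 and Robo3, and the run from Ntn3 through Efnb1, Efna5, Epha10, Unc5b and Epha8 to Ntn1, each overlapped the next gene down. The FASTQ-based values were higher on their own scale, by a median of 1.497-fold over the 35 detected genes with a range of 1.29 to 2.17, close to the 1.53 over all genes compared. Most of the order held: the rank correlation between the tables was 0.995 over the 35 genes, which share their reads. The 10 highest genes were the same 10, but Robo1 and Robo2 changed places among them. From FASTQ files Robo1 had 99.1 and 95.3 TPM and Robo2 had 79.0 and 77.1.

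The libraries were then compared gene by gene. Each gene whose 2 counts averaged 100 or more was tested with a two-sided exact binomial test on rounded expected counts and Benjamini-Hochberg adjustment over 12881 genes, which measures counting error alone and compares the reads of these 2 libraries. Of the 38 genes, 33 were tested and 10 passed an adjusted p of 0.05, or 30.3%, where 11.8% of all tested genes did. Of the 33 tested, 8 were called higher in the library labelled male, replicate 2, and 2 were called lower. Over all tested genes 6.28% were called higher and 5.49% lower. No gene of the set reached a 2-fold difference beside its adjusted p, against 0.303% of all tested genes, and 16 of the 33 had an unadjusted p under 0.05, where 23% of all tested genes did. The median absolute log2 ratio was 0.0988 over the 33 genes and 0.0702 over all tested genes. All 10 were called from the FASTQ-based counts too, together with Ntn3, where 11.9% of 13250 genes were called.

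The leading EphA receptors were all among the genes that were higher. Epha4 had 15029 and 14712 counts in libraries of unequal depth, a scaled ratio of 1.06 with a 95% counting interval of 1.03 to 1.08 and an adjusted p of 2.88e-05 in the exact binomial test. Epha5, Epha6 and Epha7 had log2 ratios of 0.09, 0.12 and 0.14. The coefficient of variation estimated over 17874 genes from the same 2 libraries was 0.0688. The ratios of Epha4 and Epha5, both 1.06, depart from 1 by less. That coefficient describes a single library about its mean, and a ratio of 2 libraries spreads more widely. The ratios of Epha6 at 1.09 and Epha7 at 1.10 are therefore not shown to exceed the variation between libraries. None of the other calls, higher or lower, was tested against that variation either. Ephb1 and Ephb3 were higher by 0.16 and 0.24 on the log2 scale, ratios of 1.12 and 1.18, and Slit1 by 0.08. The Slit1 ratio of 1.06 departs from 1 by less than the coefficient. Slit1 was closest to the threshold, with an adjusted p of 0.0478 in the exact binomial test, and lost its call under 4 of 5 other settings. Excitatory neuron markers moved the same way, with 3 of 4 called higher and a log2 ratio of 0.12 in their sum, as did CA3 and CA2 markers, with 1 of 3 called and 0.14. Other lists rose too, among them microglia at 0.19 with 3 of 4 called higher and dentate granule at 0.10 with 1 of 3. Sums fell for GABAergic neuron (-0.04, 0 of 4 called), astrocyte, oligodendrocyte precursor, meninges and fibroblast, and red blood cell markers. The part of these cell types in the difference was not tested.

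Unc5b differed most. Its counts were 466 in replicate 1 against 599 for the library labelled male, replicate 2, a ratio of 1.39 with a counting interval of 1.23 to 1.57 and an adjusted p of 3.37e-06 in the exact binomial test. By alignment its full-length transcript Unc5b-201 went from 2.93 to 4.62 TPM while Unc5b-202, annotated without a coding sequence, went from 0.82 to 0.36. Endothelial markers summed to 72.6 and 75.0 TPM with 2 of 4 called higher, choroid plexus markers to 10.6 and 349 with 1 of 2 tested called higher, and myelin markers to 156 and 281 with 4 of 4 tested called higher; their part in the difference was not tested. Lower genes were Unc5d, with 1945 and 1500 counts and a log2 ratio of -0.26, and Dcc, with 4617 and 3920 counts and a log2 ratio of -0.12. Oligodendrocyte precursor markers moved the same way, with 2 of 3 called lower, 1 called higher and a log2 ratio of -0.05 in their sum, as did meninges and fibroblast markers, with 2 of 3 tested called lower and -0.13; their part in the difference was not tested. By class, and beside the 11.8% of all tested genes called, 3 of 5 netrin receptors were called, 1 higher and 2 lower, and 0 of the 6 tested ephrins, 4 Robos and 3 tested netrins.

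**Figure D4:**
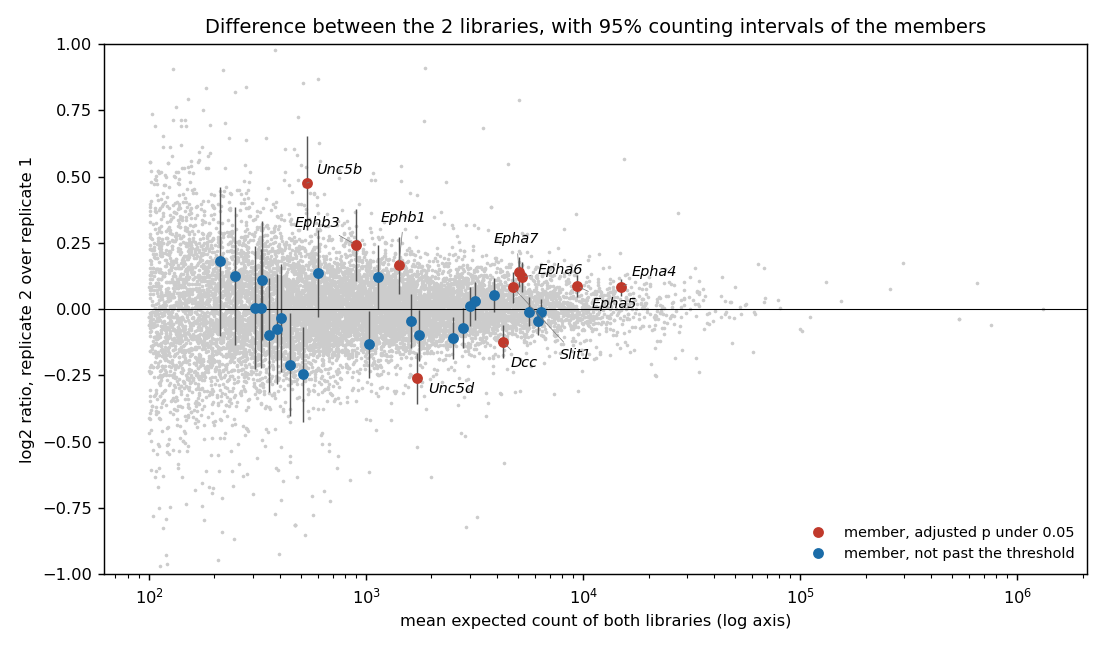
Log2 ratio of the library labelled male, replicate 2, over replicate 1 (vertical axis, cut at -1 and 1, so that genes beyond are not drawn) against the mean expected count (log axis) for all tested genes in grey and the 33 tested axon guidance genes in colour, with bars for their 95% counting intervals. The 10 called genes are red, and lie between -0.26 for Unc5d and 0.47 for Unc5b.

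Genes that act with these receptors were taken from a list of 52 partners and downstream genes: adaptors, kinases and other signalling genes, and further binding partners of Robos, Dcc and netrins. All 52 were detected and tested. Their median level was 34.1 TPM. The highest were Chn1, the α-chimaerin that acts below EphA4, with 326 TPM in replicate 1 and 368 in replicate 2, Nell2, a Robo3 ligand, with 292 and 310, and Cdc42, with 209 and 203. The lowest was Vav3, with 3.61 and 2.87. Between the libraries 8 of the 52 were called, or 15.4%, beside 11.8% of all tested genes, and 0 reached 2-fold with 0.303% of all tested genes doing so. Of the 8, named after their values were seen, Chn1, Nell2 and Ptk2 were higher in the library labelled male, replicate 2, with log2 ratios of 0.20, 0.10 and 0.12. Trim67, a binding partner of Dcc, was lower at -0.41, and Neo1, Grip1, Srgap2 and Trim9 were lower at -0.13, -0.13, -0.11 and -0.06. Grip1 and Trim9 were not called from FASTQ-based counts, with adjusted p of 0.0624 and 0.226 in the exact binomial test.

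Which transcript led was mostly the same in both transcript tables. Of the 35 detected genes, 4 have a single annotated transcript, and of the other 31, 27 had the same leading transcript by alignment and from FASTQ files. Epha5, Efna1, Robo1 and Robo4 did not by the mean of the libraries. Without replicate 1, the tables differed for 2 genes, since 33 of the 35 had the same leading transcript: in replicate 2 the FASTQ-based table also put Efna1-201 first, at 52.0% against 48.0% for Efna1-202, and Robo4-202, at 38.8% against 38.4% for Robo4-204. In Epha5 the retained-intron transcript Epha5-207 led by alignment with 21.3% and 20.6%, and the coding transcript Epha5-204 from FASTQ files with 21.5% and 23.5%. Epha5 RNA was spread over many forms, since the leading of its 11 transcripts held at most 23.5% in either table. For Robo1, alignment put Robo1-201 first with 25.9 and 23.6 TPM over Robo1-206 with 15.9 and 17.9. These start 99449 bases apart and encode 1612 and 1621 codons, and from FASTQ files their ratio was 0.946 and 0.786, so the order of the Robo1 start sites depended on the table. For Efna1, 85 and 90 counts lay behind the split between Efna1-201 and Efna1-202, and Robo4 had 248 and 250 counts.

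Splits that held in both tables could still differ between the libraries. Efna5-201, of 228 codons, was 1.34-fold above Efna5-202, of 201 codons, in replicate 1 and 2.08-fold in replicate 2 by alignment, and 1.45- and 2.07-fold from FASTQ files. For Efna3 the lead of Efna3-201 over the shorter Efna3-203 was 2.85- and 10.1-fold by alignment and 2.12- and 6.22-fold from FASTQ files. In replicate 2 the alignment-based table also gave 4.63 TPM to Efna3-202, which has no coding sequence and was listed at 0 in replicate 1 and in the FASTQ-based table. Transcript TPM values are estimates from shared reads, and with 2 libraries these shifts were not tested.

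**Figure D5:**
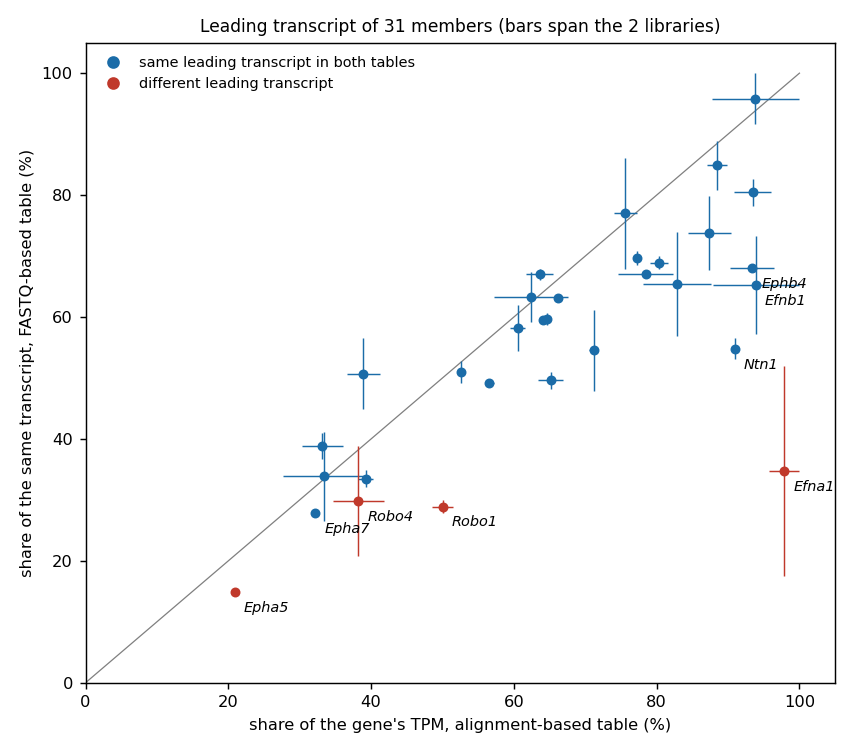
Share of the gene's TPM held by the leading transcript of the alignment-based table (horizontal axis, %) and by the same transcript in the FASTQ-based table (vertical axis, %) for 31 genes with several transcripts; points are means and bars span the 2 libraries. Blue points are the 27 genes with the same leading transcript in both tables and red points the 4 with a different one, and labelled genes are these 4, Epha7 and the genes whose shares differ by over 18 percentage points.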

How the data were processed

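Values came from 2 libraries. The authors deposited a gene table and a transcript table holding expected counts and TPM. Both rest on alignments to the transcriptome, with build mm10 and annotation GENCODE M21 named in the deposited descriptions. The authors also deposited a transcript table with estimated counts and TPM made from the FASTQ files. Not given in the sources used here: aligner, quantifier, strand use and the level of the deposited TPM interval bounds.

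Levels are deposited TPM, and each class level is their sum. Tests and library sizes leave out rows of no annotated gene, with 0.358% and 0.359% of counts. Expected counts were rounded before testing. Library sizes were scaled with TMM (edgeR 4.0.16, R 4.3.3), and log2 ratios used a prior count of 0.5. Intervals of count ratios are Clopper-Pearson (exact, 95%) and cover counting error only, since no molecular identifiers are described. Coding sequences were read from GENCODE M21 transcripts (Biopython 1.88, Python 3.11.15, scipy 1.17.1). The test was checked on simulated counts that held counting error alone, so the check does not cover variation between libraries. Another scaling, other filters, pseudocounts, single libraries and the FASTQ-based table were tried as alternatives.

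Of the 38 genes 24 overlap another gene and 19 an antisense one. For 5 (Epha1, Ephb4, Efna4, Ntn3, Ntn5) the other gene holds more than 10% of the gene's own count, which makes them uncertain. The genes, the partner and marker lists and the tests were chosen with earlier results of these data known. Named genes were all 38, the 3 highest and the lowest of the partner list, and the marker sums. Other partner genes named, those called between the libraries, were chosen after their values were seen. The single choroid plexus markers were also named after their values were seen. Alleles were not analysed here.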

Additional observations from a re-analysis of the deposited data

How the results depend on the processing

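The number of guidance genes called between the libraries stayed between 9 and 11 under other scalings, filters and FASTQ-based counts. Of these, 9 or 10 were among the 10 of the main test. With DESeq2 size factors or total counts, 7 were higher and 4 lower, against 8 and 2 in the main test. For the partner list the number called was 6 to 10. Of that list, Trim9 lost its call with a mean count of at least 10 (0.0591), no filter (0.0880) and FASTQ-based counts (0.226), and Grip1 with the last 2 (0.0559 and 0.0624). Slit1 lost its call with DESeq2 size factors (adjusted p = 0.0763), total counts (0.0735), a mean count of at least 10 (0.0600) and no filter (0.0894), all in the exact binomial test. Ntn3 gained one with DESeq2 size factors (0.0465), total counts (0.0466) and FASTQ-based counts (0.0293), and Unc5c with the first 2 (0.0432 and 0.0446). Genes that were not called changed sign near 0: Epha10 to 0.0051, Efnb1 to 0.028, Robo2 to 0.0027 and Ephb4 to -0.00023 with FASTQ-based counts, Ephb4 to -0.0038 and Efna5 to -0.0012 with DESeq2 size factors, and Ephb4 to -0.0031 and Efna5 to -0.00049 with total counts. The class ratios kept their sign in each alternative. From expected counts, which grow with gene length, ephrin-A over EphA was -4.26, ephrin-B over EphB 0.23 and netrin over receptors -3.37; with a pseudocount of 1 TPM ephrin-A over EphA was -3.11 and netrin over receptors -2.82; from FASTQ-based TPM ephrin-B over EphB was 0.34 and netrin over receptors -2.64. The share of Eph receptor TPM with the catalytic loop was 64.5% from the FASTQ-based table, 83.9% over protein-coding transcripts and 89.9% over complete coding sequences, the last chosen after seeing the data. No paired analysis was possible because there is 1 group. With 2 libraries the spread rests on a single difference per gene, and genes with under 100 counts were not tested.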
